A study of Mus musculus with 11 samples.

Results

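The SOX genes encode transcription factors that bind DNA through a high-mobility-group (HMG) box. Here 8 of them, Sox4, Sox5, Sox6, Sox9, Sox10, Sox11, Sox12 and Sox13, were chosen by symbol and found by Entrez gene identifier among the 27179 genes of the count table. All 8 passed the filter on low counts. The libraries came from C57BL/6 mice aged 5 weeks that carried an E-cadherin-GFP reporter, and no agent or deletion distinguished the groups. Mammary ducts and terminal end buds (TEBs), the bulbous tips by which ducts elongate during puberty, were dissected, and basal cells (GFP dim) and luminal cells (GFP bright) were sorted from the Lin-CD29+CD24+ cells of each. There were 3 libraries of basal duct cells, 3 of basal TEB cells, 2 of luminal duct cells and 3 of luminal TEB cells, each from a pool of at least 2 mice. The luminal gate was not split into progenitor and mature luminal cells, so its values average over both.

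SOX proteins bind short AT-rich sites in the minor groove and bend the DNA, usually together with partner factors. They are grouped by the likeness of their HMG boxes. The SOXE factors Sox9 and Sox10 direct cartilage, neural crest and glial development and are also known in the mammary epithelium, where Sox9 is linked to luminal progenitors. The SOXD factors Sox5, Sox6 and Sox13 have no activation domain of their own, and Sox5 and Sox6 assist Sox9 in cartilage. The SOXC factors Sox4, Sox11 and Sox12 are known from embryonic and neuronal progenitors, and Sox4 also from epithelial-mesenchymal transition.

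The likeness of the boxes is visible in the coding sequence. The stretches below each cover 72 bases of the coding strand, 5′ to 3′, read from GENCODE M21 transcripts of the mouse build GRCm38, and capitals mark the 35 positions at which all 8 genes carry the same base. Each stretch lies within a coding exon and starts at the run of 10 codons whose meaning was shared by all 8 genes.
Sox9: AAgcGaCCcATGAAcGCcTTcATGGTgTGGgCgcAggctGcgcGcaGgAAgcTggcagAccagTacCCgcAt
Sox10: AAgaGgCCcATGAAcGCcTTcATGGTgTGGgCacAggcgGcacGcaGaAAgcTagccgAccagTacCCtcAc
Sox5: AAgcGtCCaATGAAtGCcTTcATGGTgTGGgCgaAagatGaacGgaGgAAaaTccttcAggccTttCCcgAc
Sox6: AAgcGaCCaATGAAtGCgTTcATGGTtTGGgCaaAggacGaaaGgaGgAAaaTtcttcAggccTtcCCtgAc
Sox13: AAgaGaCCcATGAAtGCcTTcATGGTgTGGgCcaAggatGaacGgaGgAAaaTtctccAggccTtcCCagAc
Sox4: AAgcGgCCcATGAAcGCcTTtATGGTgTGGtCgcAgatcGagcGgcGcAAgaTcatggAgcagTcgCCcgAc
Sox11: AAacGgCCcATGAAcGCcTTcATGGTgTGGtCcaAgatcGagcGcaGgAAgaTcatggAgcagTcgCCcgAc
Sox12: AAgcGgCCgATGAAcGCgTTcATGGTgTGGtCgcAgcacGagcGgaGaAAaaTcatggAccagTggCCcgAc

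Over 210 bases from the same start, pairs within a group were identical at 82.4% to 90.5% of bases (7 pairs), compared with 56.2% to 75.2% for pairs of different groups (21 pairs). Sox9 and Sox10 shared 83.8%, and Sox4 and Sox11 shared 90.5%. The stretch of Sox9 lies at chr11:112782900-112782971 on the plus strand and that of Sox10 at chr15:79163333-79163404 on the minus strand. That of Sox4 lies at chr13:28952773-28952844 on the minus strand, in a gene with 1 exon. Sox11 and Sox12 also have 1 exon, whereas the longest transcripts of Sox5, Sox6 and Sox13 have 15, 16 and 14 exons. Sox5, Sox6 and Sox4 overlap non-coding genes of the opposite strand in GENCODE M21, and since the library kit does not mark strand, reads from such a partner cannot be told apart from theirs. Of these partners, Sox5os3 is in the count table.

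Totals ranged from 27989137 to 49221436 counts per library. The sum of 6 basal markers (Krt5, Krt14, Trp63, Acta2, Myh11, Oxtr) was 4952 to 17580 counts-per-million (CPM) in basal libraries and 11.9 to 216.6 CPM in luminal ones, and that of 8 luminal markers was 12330 to 19120 CPM in luminal libraries against 262.2 to 542.8 CPM in basal ones. Mitochondrial genes took 37.5% of the counts in basal TEB replicate 1 and 28.5% in luminal duct replicate 3, compared with 4.34% to 17.8% in the other libraries. Levels below are CPM after TMM scaling. Changes are log2 fold changes with standard error (SE) from edgeR's quasi-likelihood test, with an adjusted p (FDR) over 17370 genes and a threshold of 0.05.

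Sox9 was the luminal SOXE gene. Its levels in basal duct replicates 1 to 3 were 100.4, 94.2 and 80.5 CPM, and in basal TEB they were 44.5, 57.4 and 63.7 CPM. Luminal duct replicates 1 and 3 had 585.3 and 345.2 CPM, and the luminal TEB libraries had 549.4, 461.1 and 554.4 CPM. Every luminal library thus lay above every basal library. Basal cells had 5.08-fold less Sox9 than luminal cells in ducts (log2 fold change −2.34 ± 0.24 (SE), FDR = 3.1e-05) and 9.44-fold less in TEBs (−3.24 ± 0.24 (SE), FDR = 1.48e-06). In bulk samples fewer cells of a type and less RNA per cell cannot be told apart, here and for every other gene. The 3 basal TEB libraries also lay below the 3 basal duct libraries, by a log2 fold change of −0.73 ± 0.22 (SE) that did not pass the threshold (FDR = 0.150). The sum of the 8 luminal markers moved with it, at 520.4, 542.8 and 468.9 CPM in basal duct and 281.1, 306.7 and 262.2 CPM in basal TEB. Krt8 gave the larger part of this sum, with means of 342.2 CPM in basal duct and 206.0 CPM in basal TEB. Among these markers the log2 fold change was −0.73 ± 0.25 (SE, FDR = 0.215) for Krt8 and −1.98 ± 0.23 (SE, FDR = 0.00197) for Krt18. It was −1.31 ± 0.36 (SE, FDR = 0.114) for Krt19, whereas Pgr went the other way (0.31 ± 0.36 (SE), FDR = 0.756). Elf5, Esr1, Prlr and Foxa1 were lower with an FDR of 0.767 to 0.8915. The basal keratins Krt5 and Krt14 were also lower in basal TEB (FDR = 0.0249 and 0.00766). The part of the luminal markers in the Sox9 difference was not tested. In luminal cells the duct and TEB libraries overlapped (0.16 ± 0.24 (SE), FDR = 0.774).

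Sox10 had the opposite pattern. Levels were 215.5, 167.8 and 326.0 CPM in basal duct and 209.7, 284.9 and 242.9 CPM in basal TEB. The luminal duct libraries had 44.6 and 73.1 CPM, and the luminal TEB libraries had 37.3, 60.0 and 30.5 CPM. No luminal library reached the lowest basal library. Sox10 was 4.02-fold higher in basal than in luminal cells of ducts (log2 fold change 2.01 ± 0.37 (SE), FDR = 0.00185) and 5.77-fold higher in TEBs (2.53 ± 0.32 (SE), FDR = 1.03e-04). Duct and TEB libraries overlapped in both cell types, with a log2 fold change for TEB against duct of 0.06 ± 0.30 (SE) in basal cells (FDR = 0.970) and −0.47 ± 0.34 (SE) in luminal cells (FDR = 0.506). The difference of Sox9 and Sox10 between cell types passed the threshold under all 20 alternative settings in both structures.

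**Figure D1:**
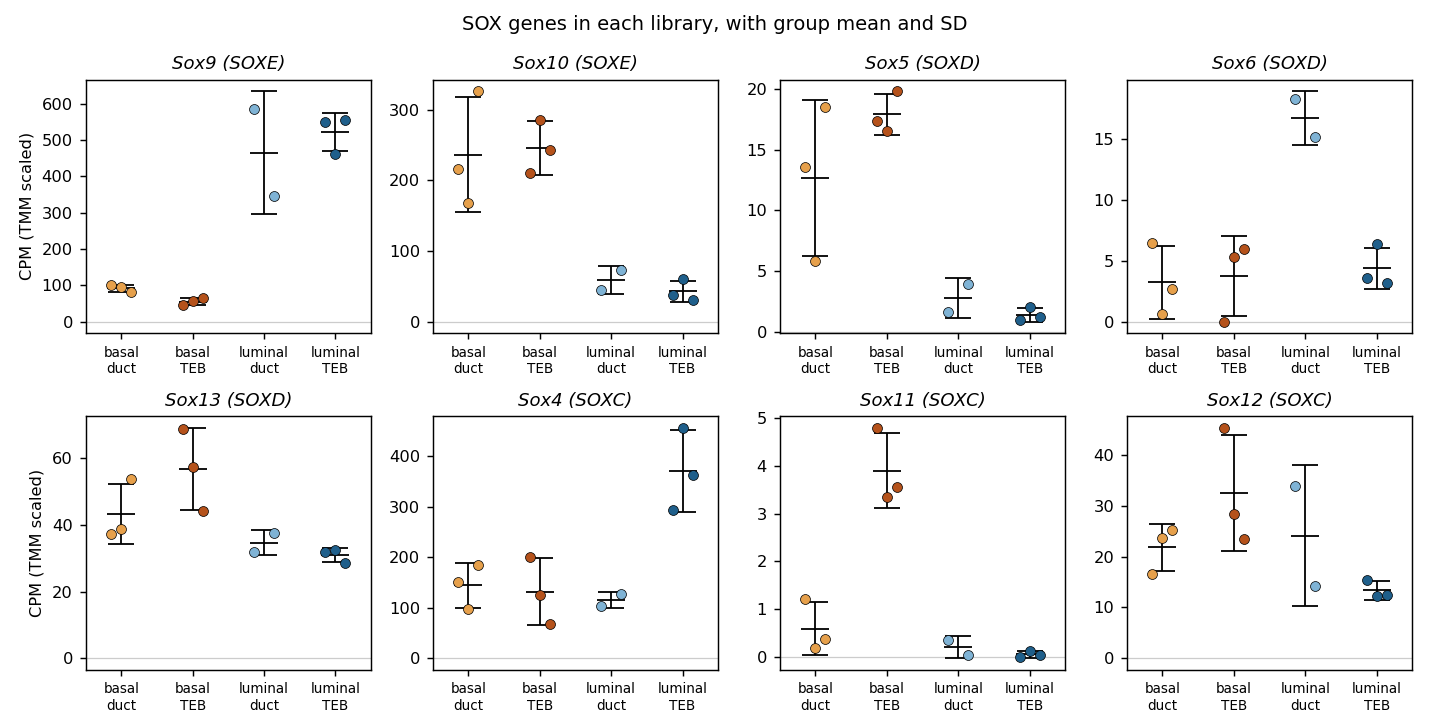
CPM after TMM scaling (vertical axes, each from its own scale) of the 8 SOX genes in the 11 libraries, with 1 point per library by group and bars for the group mean and SD. Sox9 and Sox10 separate the cell types in opposite directions, the 3 luminal TEB libraries stand apart for Sox4 (294.1 to 455.5 CPM), and the 3 basal TEB libraries stand apart for Sox11 (3.35 to 4.79 CPM).

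Sox9 and Sox10 were each also detected in the cell type where they were lower. The mean Sox10 level of luminal cells was 24.9% of that of basal cells in ducts and 17.3% in TEBs, whereas the summed basal markers of luminal cells were 0.932% and 0.313% of the basal sum. Of the 6 basal markers taken one by one, Oxtr had the highest such percentage, 2.37% in ducts and 2.07% in TEBs. The SOXD gene Sox5 was also above these markers, with 22.1% in ducts and 7.88% in TEBs. For Sox9, the mean of basal cells was 19.7% of the luminal mean in ducts and 10.6% in TEBs, compared with 3.25% and 2.00% for the sum of the 8 luminal markers. Krt8 was the luminal marker nearest to Sox9 in ducts, with 7.10%, and Pgr in TEBs, with 6.93%. These percentages are descriptions over group means, without a test. Of 6 Schwann cell markers, the glial lineage in which Sox10 is best known, 5 were at 0 in basal TEB replicate 1 and their sum there was 0.0577 CPM, beside 209.7 CPM of Sox10. That library had no count for 25.5% of the genes tested, compared with 3.48% to 19.2% in the others. Over the other basal libraries the Schwann sum was 4.59 to 41.1 CPM (41.1 CPM in basal TEB replicate 3, beside 242.9 CPM of Sox10), and in luminal libraries it was 32.2 to 66.5 CPM, of which Mbp gave the larger part. The sum of 5 melanocyte markers was at most 6.33 CPM in any library, with 2 to 5 of the markers at 0.

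**Figure D2:**
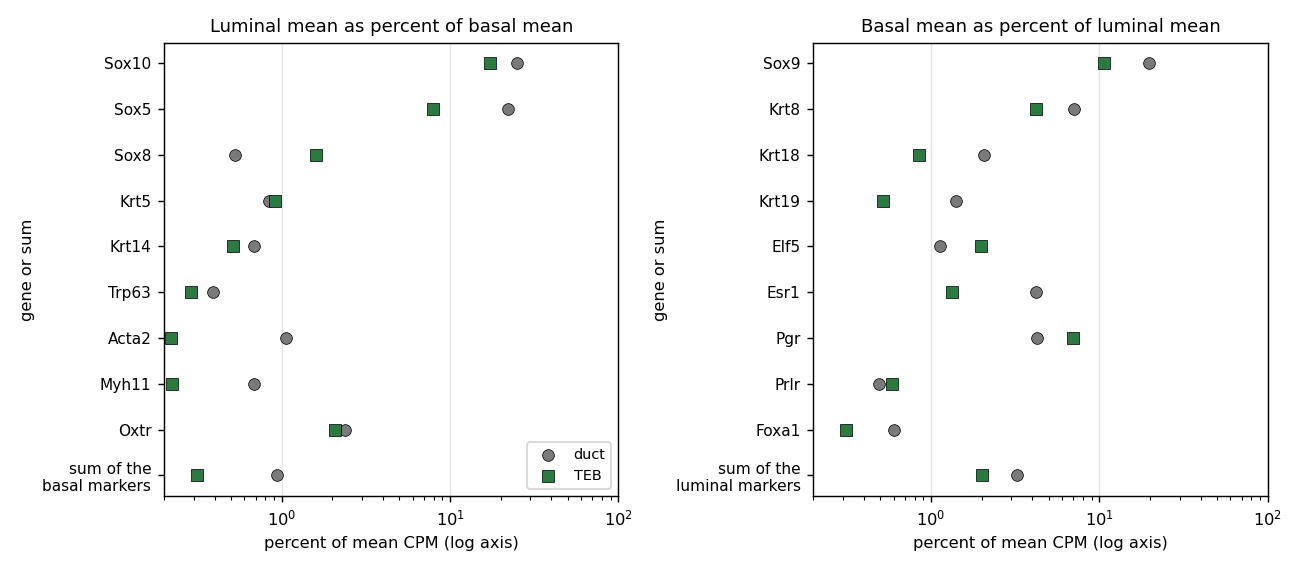
Mean CPM in the cell type with the lower level as a percentage of the mean in the other cell type (log axes), for basal genes (left) and luminal genes (right), in ducts (circles) and TEBs (squares). Sox10 in luminal cells (24.9% and 17.3%) and Sox9 in basal cells (19.7% and 10.6%) lie to the right of every marker shown, whereas Sox8, the third SOXE gene, lies among the basal markers (0.528% and 1.61%). Sox5 in luminal cells (22.1% and 7.88%) also lies to the right of every basal marker shown.

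Among the SOXD genes, Sox5 was higher in basal cells of both structures and Sox13 in basal cells of TEBs. Sox5 had 13.6, 5.79 and 18.6 CPM in basal duct and 17.4, 16.6 and 19.8 CPM in basal TEB. Its luminal levels were 1.64 and 3.95 CPM in ducts and 0.964, 2.06 and 1.21 CPM in TEBs. The lowest basal library, basal duct replicate 2, was above the highest luminal library. Sox5 was 12.7-fold higher in basal than in luminal cells of TEBs (log2 fold change 3.66 ± 0.61 (SE), FDR = 8.17e-04) and 4.54-fold higher in ducts (2.18 ± 0.67 (SE), FDR = 0.0361). The call in ducts was lost without basal duct replicate 1 (FDR = 0.0762) or 3 (FDR = 0.117), without luminal duct replicate 1 (FDR = 0.159), and without basal TEB replicate 2 (FDR = 0.0527) or 3 (FDR = 0.0568) or luminal TEB replicate 3 (FDR = 0.0545), which enter only through the shared estimate of the spread. By limma voom its FDR was 0.0704, and with the replicate number as a block it was 0.0512. TEB and duct levels of Sox5 overlapped in both cell types.

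Sox13, known as an autoantigen of pancreatic islets and from γδ T cells, lay between 28.4 and 68.8 CPM in all libraries. Its levels were 37.3, 38.7 and 53.7 CPM in basal duct and 68.8, 57.2 and 44.1 CPM in basal TEB. They were 32.0 and 37.4 CPM in luminal duct and 31.8, 32.5 and 28.4 CPM in luminal TEB. In TEBs the cell types did not overlap and basal cells were 1.83-fold higher (log2 fold change 0.88 ± 0.22 (SE), FDR = 0.0125), a call that was lost without luminal TEB replicate 3 (FDR = 0.0633) and with scaling by library size alone (FDR = 0.317). In ducts the ranges met at 37.3 CPM in basal duct replicate 1 and 37.4 CPM in luminal duct replicate 3, and the log2 fold change was 0.32 ± 0.25 (SE, FDR = 0.389).

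Sox6 had few counts in several libraries. It stood at 6.45, 0.579 and 2.64 CPM in basal duct, and at 5.35 and 5.97 CPM in basal TEB replicates 2 and 3, with a count of 0 in basal TEB replicate 1, which allows up to 0.173 CPM by a limit of 3 counts, for counting error only. The luminal duct libraries had 18.3 and 15.2 CPM, and the luminal TEB libraries had 3.56, 6.34 and 3.20 CPM. Both luminal duct libraries thus lay above the other 9. No comparison of Sox6 passed the threshold. The log2 fold change of basal against luminal cells in ducts was −2.37 ± 1.35 (SE, FDR = 0.234), and that of TEB against duct in luminal cells was −1.94 ± 1.34 (SE, FDR = 0.485). Without basal TEB replicate 1, the library with a count of 0 and the highest mitochondrial share, the FDR for cell types in ducts was 0.0498.

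Of the SOXC genes, Sox4 stood out in luminal TEB cells. Levels were 151.3, 96.5 and 185.2 CPM in basal duct, and 200.5, 125.3 and 68.4 CPM in basal TEB. The luminal duct libraries had 103.6 and 126.5 CPM, whereas the luminal TEB libraries had 294.1, 455.5 and 361.9 CPM. The 3 luminal TEB libraries lay above the 8 others, which overlapped one another. In TEBs Sox4 was 2.82-fold lower in basal than in luminal cells (log2 fold change −1.497 ± 0.35 (SE), FDR = 0.00825), and in ducts the difference was 0.33 ± 0.39 (SE, FDR = 0.592). Luminal TEB cells had 3.22-fold more Sox4 than luminal duct cells, a log2 fold change of 1.69 ± 0.41 (SE) that did not pass the threshold (FDR = 0.0702). It passed by edgeR's likelihood ratio test (FDR = 0.00491), DESeq2 (FDR = 0.00289), limma voom (FDR = 0.0281) and with no filter on low counts (FDR = 0.0373), and also without basal TEB replicate 1 (FDR = 0.0352) or 3 (FDR = 0.0482). Over all genes the likelihood ratio test called 1006, DESeq2 1247, limma voom 351 and the fit without the filter 357. The quasi-likelihood test with the filter called 245. Over the 20 alternatives the log2 fold change lay between 1.503 and 2.093. In basal cells TEB and duct overlapped (−0.14 ± 0.35 (SE), FDR = 0.910). The test of the difference between these TEB-against-duct changes, basal minus luminal, gave −1.82 ± 0.53 (SE, FDR = 0.166).

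Sox11, a factor of embryonic and neuronal progenitors, was scarce. Basal TEB libraries had 83, 159 and 127 counts, or 4.79, 3.35 and 3.56 CPM. Basal duct libraries had 61, 7 and 15 counts, or 1.22, 0.184 and 0.385 CPM. Luminal duct libraries had 16 and 1 counts, and luminal TEB libraries had 0, 7 and 2 counts, so the luminal TEB level rests on 9 counts in all. The lowest basal TEB library was above all libraries of the other groups. Against luminal TEB cells the log2 fold change of basal TEB cells was 6.00 ± 1.74 (SE, FDR = 0.0240), and the call was lost without luminal TEB replicate 1 (FDR = 0.0799) or 3 (FDR = 0.106), and the FDR was 0.0522 with the replicate number as a block. Against basal duct cells it was 2.70 ± 1.48 (SE), which did not pass the threshold (FDR = 0.428). A count of 0 in luminal TEB replicate 1 allows up to 0.0673 CPM.

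Sox12, the remaining SOXC gene, had 16.6, 23.6 and 25.2 CPM in basal duct and 45.4, 28.5 and 23.6 CPM in basal TEB. It had 34.0 and 14.3 CPM in luminal duct and 15.4, 12.2 and 12.5 CPM in luminal TEB. Only the TEB cell types were separate, with basal cells 2.43-fold higher (log2 fold change 1.28 ± 0.37 (SE), FDR = 0.0236). This call was lost without basal TEB replicate 1 (FDR = 0.0827), without luminal TEB replicate 1, 2 or 3 (FDR = 0.0528, 0.0905 and 0.0893) and with scaling by library size alone (FDR = 0.195). In ducts the difference was −0.15 ± 0.41 (SE, FDR = 0.832), and the 2 luminal duct libraries spanned the 3 basal ones.

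Between cell types of TEBs, 7 of the 8 SOX genes passed the threshold, 5 higher and 2 lower in basal cells, and the libraries of the cell types did not overlap for these 7. Over all genes 25.1% passed, 13.2% higher and 11.8% lower in basal cells, and 49.8% did not overlap. In ducts 3 of 8 passed, Sox10 and Sox5 higher and Sox9 lower in basal cells, where 22.3% of all genes passed (12.6% higher and 9.71% lower). There 4 of 8 did not overlap, the fourth being Sox6, compared with 46% of all genes. The median absolute log2 fold change of the 8 genes was 2.01 in TEBs and 1.76 in ducts, and over all genes tested it was 0.87 and 0.92. Members within a group differed in direction. In TEBs Sox9 was lower and Sox10 higher in basal cells, and Sox4 was lower whereas Sox11 and Sox12 were higher.

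Between TEBs and ducts none of the 8 passed by edgeR's quasi-likelihood test in either cell type. In basal cells 1.32% of all genes passed, and Sox9 alone of the 8 had an unadjusted p below 0.05, compared with 14.5% of all genes. DESeq2 called 1 of the 8 in basal cells (Sox9, FDR = 0.0175), and the likelihood ratio test and limma voom called 0. Over all genes these called 874, 707 and 601, compared with 230 by the quasi-likelihood test. In luminal cells 1.41% of all genes passed, and Sox4 alone had an unadjusted p below 0.05, compared with 16.6% of all genes. There the likelihood ratio test, DESeq2 and limma voom each called 1 of the 8, Sox4. Over all genes these called 1006, 1247 and 351, compared with 245 by the quasi-likelihood test. The TEB and duct libraries did not overlap for 2 of 8 genes in basal cells (Sox9 and Sox11) and for 2 of 8 in luminal cells (Sox4 and Sox6), against 20.8% and 43.7% of all genes. The median absolute log2 fold change of the 8 genes was 0.45 in basal and 0.92 in luminal cells, beside 0.49 and 0.58 over all genes. For the difference between the changes of the 2 cell types, 0 of 8 passed, where 0.443% of all genes did. An unadjusted p below 0.05 was reached by 3 of the 8 (Sox4, Sox9 and Sox12), compared with 14.7% of all genes, and the likelihood ratio test (FDR = 0.0361) and DESeq2 (FDR = 0.0310) each called Sox4, whereas limma voom called 0. Over all genes these called 629, 696 and 95, compared with 77 by the quasi-likelihood test. Without luminal duct replicate 1, Sox9 was called, with a difference of −1.33 (FDR = 0.0379).

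**Figure D3:**
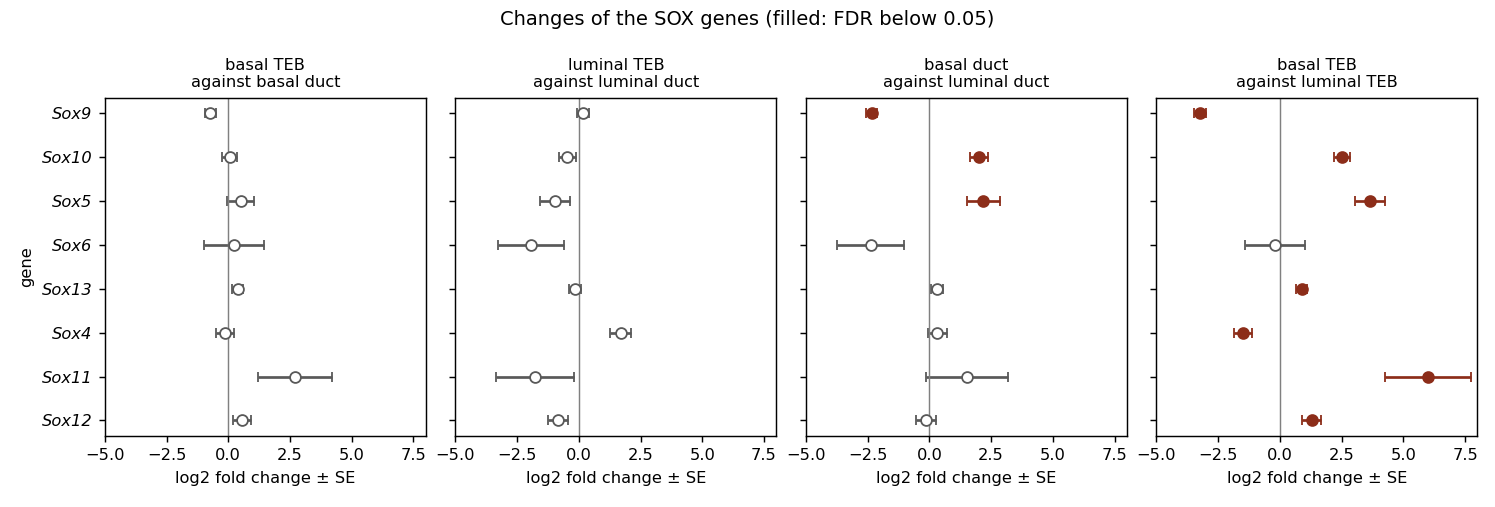
Log2 fold change with SE (horizontal axes) of the 8 SOX genes in 4 comparisons, with filled points at an FDR below 0.05. No point is filled for TEB against duct in either cell type. Between the cell types 3 points are filled in ducts and 7 in TEBs, where Sox6 is the open one.

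To set the genes side by side, the CPM values were divided by gene length in kilobases (RPKM). In basal duct the order by mean was Sox10 (87.2 RPKM), Sox4 (48.7), Sox9 (22.1), Sox13 (12.3), Sox12 (4.92), Sox5 (1.72), Sox6 (0.380) and Sox11 (0.0704), and only the neighbours Sox10 and Sox4 and the neighbours Sox6 and Sox11 overlapped between libraries. In basal TEB Sox10 again led with 90.6 RPKM, and Sox13 (16.1) and Sox9 (13.3) overlapped, as did Sox11 (0.461) and Sox6 (0.444). In luminal duct Sox9 led with 112.2 RPKM, above Sox4 (38.8) and Sox10 (21.7), and no neighbours overlapped. In luminal TEB the mean of Sox9 was 125.8 RPKM and that of Sox4 was 124.9 RPKM, with overlapping libraries, and both lay above Sox10 (15.7). Sox5 and Sox6 exchanged places between the cell types of ducts, with Sox5 at 1.72 RPKM and Sox6 at 0.380 RPKM in basal cells and 0.381 and 1.97 RPKM in luminal cells.

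As a share of the summed RPKM of the 8 genes, Sox10 gave 48.5% in basal duct and 52.4% in basal TEB, and Sox9 gave 58.0% in luminal duct and 45.5% in luminal TEB. Sox4 gave 44.5% in luminal TEB and between 20.8% and 27.2% in the other groups. The sum itself was 258.4 to 299.9 RPKM in luminal TEB and 134.3 to 225.8 RPKM in the other 8 libraries.

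**Figure D4:**
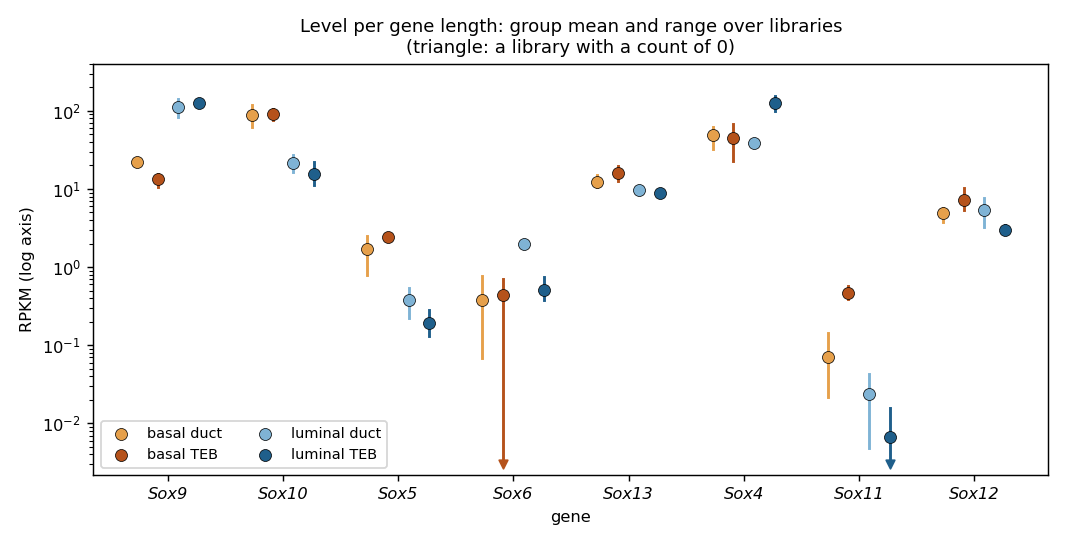
RPKM (log axis) of the 8 SOX genes by group, with points for the group mean and lines for the range over libraries. Triangles at the foot of the axis mark a library with a count of 0, which occurs for Sox6 in basal TEB and for Sox11 in luminal TEB. Sox9 and Sox4 meet in luminal TEB (125.8 and 124.9 RPKM), and Sox10 leads in both basal groups.

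For each gene the 3 genes most like it were taken by Pearson correlation of log2 CPM over the 11 libraries. The libraries fall into 4 groups and share their depth, so these values mostly describe differences between groups and carry no p. Nearest to Sox9 were Prdx3 (r = 0.996), the luminal keratin Krt8 (0.993) and Cyb561 (0.993). Nearest to Sox10 were Itpkb (0.991), Pcdh18 (0.987) and Rtn1 (0.986). Sox5 was nearest to Cadm1 (0.983), and Sox4 to Urod (0.985), followed at a distance by Clock (0.928) and Steap2 (0.921). The nearest genes of Sox6 (Trp53rka), Sox11 (P3h4), Sox12 (Ero1b) and Sox13 (Arhgef19) had correlations of 0.948, 0.950, 0.917 and 0.944.

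Among partners and other HMG-box factors (7 genes, all tested), 3 were higher in basal cells in ducts and in TEBs, compared with 12.6% and 13.2% of all genes. The 3 were Tcf7 and Tcf7l1, which act in Wnt signalling through an HMG box, and Snai2, a zinc-finger repressor of epithelial genes. In TEBs their log2 fold changes were 4.31 ± 0.37 (SE, FDR = 5.26e-06), 4.25 ± 0.44 (SE, FDR = 2.11e-05) and 11.15 ± 0.93 (SE, FDR = 4.13e-06). The luminal TEB level of Snai2 rests on 4 counts in all, so the size of its change is poorly fixed. Ctnnb1, Fbxw7, Tcf7l2 and Lef1 did not pass in either structure. Between TEBs and ducts edgeR's quasi-likelihood test called 0 of the 7 genes in basal cells, where 1 had an unadjusted p below 0.05 (14.5% of all genes). In luminal cells it called 1, Snai2, where 1.41% of all genes passed. Snai2 had 1.55 and 0.123 CPM in luminal duct (68 and 3 counts) and at most 0.0762 CPM in luminal TEB (0, 4 and 0 counts). Of the 6 basal markers 5 were also lower in luminal TEB than in luminal duct (Krt5, Krt14, Acta2, Myh11 and Oxtr). Their sum was 81.8 and 216.6 CPM in luminal duct and 11.9 to 24.5 CPM in luminal TEB, with Trp63 included. The part of basal cells in the Snai2 value was not tested.

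Of 4 known SOXC targets, Marcksl1, a regulator of the actin skeleton, was higher and the Hippo pathway factor Tead2 lower in basal cells of both structures. In each structure 2 of the 4 passed as higher and 1 as lower in basal cells. Over all genes 12.6% were higher and 9.71% lower in ducts, and 13.2% and 11.8% in TEBs. In TEBs the log2 fold change of Marcksl1 was 2.09 ± 0.23 (SE, FDR = 3.01e-05) and that of Tead2 was −1.95 ± 0.17 (SE, FDR = 6.87e-06). Tubb3, a neuronal tubulin, was higher in basal TEB than in luminal TEB cells (FDR = 0.0101), at levels of 0.577 to 5.71 CPM. Ezh2, the histone methyltransferase of the Polycomb complex, was higher in basal than in luminal cells of ducts (FDR = 0.0192). It was the 1 target that passed between TEBs and ducts, with 1.99-fold more in luminal TEB than in luminal duct cells (FDR = 0.0380). In that comparison 1.41% of all genes passed. Tead2 had 247.6 and 251.3 CPM in luminal duct and 159.3, 130.5 and 145.7 CPM in luminal TEB, with a log2 fold change of −0.78 ± 0.19 (SE) that did not pass (FDR = 0.0634).

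Of 8 cartilage targets of Sox9 and the SOXD factors, 6 were tested and 3 passed, each higher in basal cells in both structures. Over all genes 12.6% were higher in ducts and 13.2% in TEBs. The 3 cartilage genes were the fibrillar and associated collagens Col2a1, Col9a1 and Col11a1, whose log2 fold changes in TEBs were 9.82 ± 1.11 (SE, FDR = 4.36e-05), 5.45 ± 0.43 (SE, FDR = 2.58e-06) and 6.26 ± 0.44 (SE, FDR = 1.05e-06). Col2a1 had 63.3 to 79.9 CPM in basal TEB, 7.81 to 41.2 CPM in basal duct and at most 0.987 CPM in luminal libraries. Its luminal TEB level rests on 11 counts in all, so the size of its change is poorly fixed. Col11a2 was detected in all libraries and did not pass, with 4.41 to 8.64 CPM in basal duct, 8.10 and 19.04 CPM in luminal duct and 4.15 to 13.2 CPM in TEBs, and a log2 fold change of basal against luminal cells of −0.93 ± 0.64 (SE, FDR = 0.326) in ducts and 0.62 ± 0.59 (SE, FDR = 0.490) in TEBs. Between cell types, the summed markers of fibroblasts, which also make collagens, moved with the 3 genes. The sum of 5 such markers was 337.3 to 581.2 CPM in basal duct against 5.99 and 126.6 CPM in luminal duct, and 171.7 to 277.4 CPM in basal TEB against 7.29 to 28.7 CPM in luminal TEB. Of the 5 markers only Dcn passed the test between cell types, in ducts (FDR = 0.00173) and in TEBs (FDR = 8.86e-05). Dcn gave the larger part of the sum in basal cells, with means of 307.4 CPM in basal duct and 143.3 CPM in basal TEB. Col1a1, Col1a2, Pdgfra and Lum did not pass in either structure, and Lum had means of 3.64 CPM in basal duct and 3.24 CPM in luminal duct. From basal duct to basal TEB the mean fibroblast sum went down, from 426.7 to 214.6 CPM. The means of the 3 collagens went up, from 20.7 to 69.0 CPM for Col2a1, from 219.4 to 370.0 for Col9a1 and from 355.7 to 595.8 for Col11a1. None of these genes passed between basal duct and basal TEB. The part of fibroblasts in the collagen values, or in those of the SOX genes, was not tested. Acan and Comp were at most 1.34 CPM in all libraries, and Hapln1 had no counts. Of 7 neural crest and glial targets of Sox10, the secreted protein gene Mia was higher and the receptor gene Erbb3 lower in basal cells of both structures. In all, 1 of the 7 passed as higher and 1 as lower in ducts, and 2 and 1 in TEBs. Over all genes 12.6% were higher and 9.71% lower in ducts, and 13.2% and 11.8% in TEBs. The endothelin receptor gene Ednrb was higher in basal cells of TEBs (FDR = 0.0417) and did not pass in ducts (FDR = 0.402). Its counts were 0, 342 and 361 in basal TEB and 0, 0 and 5 in luminal TEB, so the cell types overlapped at 0 and no fold is given. In TEBs the log2 fold change of Mia was 3.68 ± 0.27 (SE, FDR = 1.38e-06), and that of Erbb3 was −2.35 ± 0.57 (SE, FDR = 0.00952). Between TEBs and ducts 0 of the 6 cartilage genes passed by edgeR's quasi-likelihood test in either cell type, with an unadjusted p below 0.05 for 1 in basal and 3 in luminal cells, and 0 of the 7 neural crest genes passed, with 1 and 2 such genes. Over all genes 14.5% in basal and 16.6% in luminal cells had such an unadjusted p.

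Of the 12 other SOX genes 7 passed the filter on low counts, and Sox8 alone passed the test, in both comparisons of cell types. Over all genes 22.3% passed in ducts and 25.1% in TEBs. Sox8, the third SOXE gene, had 32.9, 31.4 and 50.9 CPM in basal duct and 64.4, 79.99 and 65.3 CPM in basal TEB. Its luminal levels were 0.364 and 0.0411 CPM in ducts and 1.05, 1.58 and 0.732 CPM in TEBs. The log2 fold change of basal against luminal cells was 7.37 ± 0.66 (SE, FDR = 1.19e-05) in ducts and 5.96 ± 0.49 (SE, FDR = 3.81e-06) in TEBs, so 2 of the 3 SOXE genes were higher in basal cells. Sox7, Sox17 and Sox18, the SOXF genes of endothelium, had 12.5, 7.71 and 7.92 CPM in basal duct replicate 2 and at most 1.79 CPM in any other library. In that replicate the sum of 5 endothelial markers was 175.1 CPM, compared with 1.02 to 35.9 CPM elsewhere. The part of these cells in the values of the 8 genes was not tested, and without basal duct replicate 2 no call of the 8 genes was lost or gained.

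RefSeq promoter windows around a listed start (GRCm38.p6) were at hand for 6 of the 8 genes, all but Sox9 and Sox10. They were searched on both strands for the SOX-type motif ACAAAG, which 18.7% of 32851 promoters held at least once. A further search was for its variant AACAAT, held by 10.7% of these promoters. The common promoter element CCAAT was held by 37.4%. Each motif was counted by itself, and the reverse complements of the last 2 begin alike. The windows of Sox4, Sox11, Sox12, Sox5 and Sox13 held neither SOX-type motif. Of the starts listed for Sox6 several held ACAAAG, and the window at chr7:115824661-115824960 also held AACAAT 2 times. The Sox5 window, at chr6:143947057-143947356, lies inside the gene, which spans 143828425 to 144782287 on the minus strand. The outermost window of Sox6 ends at 116038994, also inside its gene, which reaches 116040776 on the minus strand. The outermost starts of Sox5 and Sox6 were therefore not searched. The common element occurred 4 times in the Sox4 promoter and 1 time each in those of Sox11 and Sox12. Among the Sox6 windows it occurred 4 times in that at chr7:115846091-115846390. It occurred 1 time each in those at chr7:115995037-115995336 and chr7:115801560-115801859. The Sox4 promoter is shown because this gene set the luminal TEB libraries apart. It lies at chr13:28953650-28953949 on the minus strand, has a GC content of 52.0% (median of all promoters 52.7%), and capitals mark the common element or, where read from the other strand, its reverse complement.
Sox4: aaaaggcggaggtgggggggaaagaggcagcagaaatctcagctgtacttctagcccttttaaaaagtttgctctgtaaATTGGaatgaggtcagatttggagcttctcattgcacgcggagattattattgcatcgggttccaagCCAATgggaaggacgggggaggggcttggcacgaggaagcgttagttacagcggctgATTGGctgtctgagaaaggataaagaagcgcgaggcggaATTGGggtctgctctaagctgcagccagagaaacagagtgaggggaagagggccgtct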

How the data were processed

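Bulk RNA-seq libraries (TruSeq RNA v2) were aligned by the authors to mm10 with Rsubread and summarised by featureCounts on its inbuilt RefSeq genes. Deposited values are raw counts per Entrez gene, from which the authors had left out a luminal duct library with too few cells. Each library's own table equalled its column in the series table. Genes passing filterByExpr (at least 10 counts, 15 in total) were scaled by TMM and fitted with edgeR 4.0.16 in R 4.3.3 as 1 quasi-likelihood model of 4 groups, with Benjamini-Hochberg adjustment over 17370 genes. Alternatives included limma 3.58.1 and DESeq2 1.42.0, other scalings and each library left out, and scripts were tested on simulated data. The SE came from dividing the log2 fold change, without its sign, by the square root of F. Log2 CPM used a prior count of 2, and RPKM the gene lengths of the file. The 8 genes and all lists were chosen with earlier results of these data known. Genes named are the 8, the other SOX genes, those of the lists and, for each of the 8, the 3 most correlated genes that have a symbol and average 2 or more on the log2 CPM scale. The p-values measure the spread between pools of mice.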

Additional observations from a re-analysis of the deposited data

How the results depend on the processing

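Over 20 alternative settings, 11 of which left out 1 library each, 749 of 800 log2 fold changes kept their direction and their side of the threshold, 18 lost a call, 11 gained one and 22 changed sign. The number of SOX genes called between basal TEB and duct was 1 by DESeq2, by which 874 of all genes were called. Between luminal TEB and duct it was 1 with no filter on low counts, by the likelihood ratio test, by DESeq2 and by limma voom, and 0 to 1 over the libraries left out. Over all genes these settings called 357, 1006, 1247 and 351. Between the cell types the number of SOX genes called was 2 to 4 in ducts and 4 to 7 in TEBs over the libraries left out, with 4 when luminal TEB replicate 3 was absent. The number called for the difference of changes was 1 by the likelihood ratio test and by DESeq2 and 0 to 1 over the libraries left out.

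The values that changed sign belonged to differences that did not pass the threshold. With 1 library left out, the log2 fold change of basal TEB against duct ran from −0.139 to 0.359 for Sox10, from −0.261 to 1.22 for Sox6 and from −0.568 to 0.174 for Sox4. For luminal TEB against duct it ran from −0.167 to 0.597 for Sox9 and from −3.201 to 0.465 for Sox11. For the cell types it ran from −0.642 to 0.609 for Sox12 in ducts and from −0.691 to 0.368 for Sox6 in TEBs. With library size alone, Sox10 became −0.063 for basal TEB against duct, Sox13 became 0.231 for luminal TEB against duct, and Sox10 and Sox13 became −0.027 and −0.03 for the difference of changes. By limma voom Sox6 became −0.768 for basal TEB against duct. Leaving out both libraries of highest mitochondrial share gave −0.15 for Sox9 in luminal TEB against duct and 0.366 for Sox6 between cell types in TEBs. The cause was not tested.

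Per the series text, 3 pools of mice gave the tissue, and luminal duct lacks number 2, so a number may mark a pool, which the labels do not state. Over 15 same-numbered pairs, deviations from group means correlated between −0.068 and 0.163, and 4 pairs were above 0.1. For basal duct and TEB the same-numbered values were 0.114, 0.115 and 0.06, against at most 0.035 for different numbers. With the replicate number as a block, 2 genes were called between cell types in ducts and 6 in TEBs, with an FDR of 0.0512 for Sox5 in ducts and 0.0522 for Sox11 in TEBs, and Sox12 became 0.013 in ducts. The block changed no other call of the 8 genes. Under library size alone, the median change over all genes went from 0.04 to −0.35 for cell types in TEBs, from 0.04 to 0.42 for luminal TEB against duct, from 0.08 to 0.19 for cell types in ducts and from −0.03 to −0.16 for basal TEB against duct, and the share of higher calls in TEBs went from 52.8% to 37.2%. The luminal duct group has 2 libraries, and when 1 was left out the other was assumed to vary like the remaining groups. Sox11 is limited by its few counts. Sox6 had 159 to 804 counts in luminal libraries but 0 to 323 in basal ones, where libraries of the same group differed widely.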
